A study of Mus musculus with 24 samples.

Results

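Lyst, Klhl11, Farp2, Samd5, Birc6 and Hebp1 are 6 genes whose levels in the embryonic mouse gut did not follow the sum of the effects of losing Ret and losing Sema3d, or differed in Sema3d null guts. They were picked by symbol, with these values known, from the 26260 genes in the authors' deposited table of all 24 guts, and each is listed once in all 4 deposited tables, which share 23679 genes. Their product coefficients and Sema3d null changes are therefore descriptions of how they were chosen. The guts were whole, from embryonic day 12.5, and came from Ret null homozygotes, Sema3d null homozygotes, homozygotes for both nulls (double null) and wildtype embryos, with 6 guts per genotype, 3 female and 3 male. All 4 genotypes shared a mixed C57BL/6, 129/Sv and C3H background, and the null alleles are not described further in the labels. Each gut gave 1 poly-A library made with a stranded kit. The labels do not say which guts were littermates.

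Ret is the receptor tyrosine kinase through which GDNF-family ligands guide and sustain the neural crest cells that build the enteric nervous system. Sema3d is a secreted class 3 semaphorin, a guidance cue read by neuropilin and plexin receptors. The series tested whether the pair of genes interacts in that process. If their losses acted independently, the log2 changes of the single nulls would add up in the double null, and the product coefficient, which measures the departure from that sum, would be 0. The 6 genes have no common pathway. Lyst is the BEACH domain protein that controls the size and traffic of lysosomes and is mutated in the beige mouse. Klhl11 is a BTB-Kelch protein of the family that presents substrates to Cul3 ubiquitin ligases, and Birc6 is a very large inhibitor of apoptosis protein with its own ubiquitin-conjugating domain. Farp2 is a FERM-domain Rac exchange factor that binds plexin A1 and acts downstream of class 3 semaphorins in axons. Samd5 carries a sterile alpha motif, a protein interaction module. Hebp1 is a small cytosolic heme-binding protein.

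The promoters of the genes with the largest positive product coefficients (Lyst, Klhl11 and Farp2) and of Hebp1, whose coefficient has the opposite sign, are shown as the 250 bases before the RefSeq start on GRCm38.p6, 5′ to 3′ on the strand of the gene. Capitals mark the motifs searched on both strands: the GC box (GGGCGG or CCGCCC), the CCAAT box (CCAAT or ATTGG), the E-box CACGTG and the TATA box (TATAAA or TTTATA). The windows lie at chr13:13590159-13590408 (plus strand) for Lyst, chr11:100472783-100473032 (minus) for Klhl11, chr1:93511854-93512103 (plus) for Farp2 and chr6:135168216-135168465 (minus) for Hebp1. The Hebp1 start in RefSeq lies inside the longer GENCODE gene span.
Lyst: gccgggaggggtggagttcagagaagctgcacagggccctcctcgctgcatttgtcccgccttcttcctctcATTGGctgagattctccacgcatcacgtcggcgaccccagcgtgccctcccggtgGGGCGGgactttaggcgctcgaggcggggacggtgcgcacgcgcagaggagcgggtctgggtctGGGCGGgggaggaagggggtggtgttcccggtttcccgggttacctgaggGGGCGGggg
Klhl11: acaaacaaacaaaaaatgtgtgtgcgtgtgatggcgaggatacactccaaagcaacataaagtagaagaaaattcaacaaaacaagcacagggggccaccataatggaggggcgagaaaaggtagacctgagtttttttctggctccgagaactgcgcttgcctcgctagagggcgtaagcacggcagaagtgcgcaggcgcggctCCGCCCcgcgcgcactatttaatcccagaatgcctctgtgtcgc
Farp2: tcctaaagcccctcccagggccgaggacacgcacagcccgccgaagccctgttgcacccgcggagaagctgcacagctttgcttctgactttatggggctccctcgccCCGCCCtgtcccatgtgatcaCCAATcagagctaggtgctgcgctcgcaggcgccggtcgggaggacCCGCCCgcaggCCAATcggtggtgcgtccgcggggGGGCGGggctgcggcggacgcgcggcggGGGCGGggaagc
Hebp1: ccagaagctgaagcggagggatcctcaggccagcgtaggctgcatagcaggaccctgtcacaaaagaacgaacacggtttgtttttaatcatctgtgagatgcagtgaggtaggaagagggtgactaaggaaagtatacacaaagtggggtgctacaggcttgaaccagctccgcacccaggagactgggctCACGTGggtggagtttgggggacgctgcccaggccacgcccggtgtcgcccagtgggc
A GC box was present in 5 of the 6 promoters, Hebp1 being the exception, against 32.7% of the 32851 RefSeq promoter windows of the same length. A CCAAT box was present in 2 of 6 (Lyst and Farp2) against 33.8% of all windows. The E-box was found in Hebp1 (6.02% of all windows), and a TATA box in 0 of 6 (12.4% of all). The 6 windows held between 10 (Hebp1) and 35 (Samd5) CpG dinucleotides, against a median of 6 over all windows. Lyst had 22, Klhl11 16, Farp2 27 and Birc6 18. The shares over all windows were taken whatever the level of the gene or its CpG content, so they are not matched to the 6.

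The values behind the levels are the authors' DESeq model fits. The deposited tables hold no value for a single gut, so each level below is a fitted level: normalised counts for 1 genotype, averaged over the sexes, from the coefficients of the authors' deposited 24-gut table. Errors after ± are derived from each coefficient and its deviance drop. Adjusted p-values are the deposited likelihood-ratio values with Benjamini-Hochberg adjustment over the whole table, and a gene is called when this is under 0.05. The targeted genes were low where the labels place the nulls. In the authors' deposited 12-gut tables Ret changed by a log2 value of -8.34 ± 0.24 in Ret nulls and -10.36 ± 0.29 in double nulls, and Sema3d by -1.06 ± 0.11 in Sema3d nulls and -1.04 ± 0.07 in double nulls. A fitted level of at least 50 was reached by 12138 to 12200 genes per comparison, with median derived errors of 0.0773 (Ret null), 0.111 (Sema3d null), 0.0782 (double null) and 0.135 (product).

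Of the 6 genes, 5 had a called product coefficient, all positive and Hebp1 excepted, where 0.164% of the 26258 genes tested in the authors' deposited 24-gut table were called (34 positive, 0.129%, and 9 negative, 0.0343%). Nothing follows from that share, since the genes were picked on this coefficient. In all 5 the fitted levels of both single nulls lay below wildtype, and the double null lay above the level that the sum of the single changes gives. The 5 double null levels were 1.37 to 1.84 times that sum, with a median of 1.61. Over all 12181 genes with a level of at least 50, the median size of the product coefficient was 0.120, and 28.9% had the same signs (both singles below wildtype and a positive product). Among the 32 of them whose product was called, 26 had these signs. The mirror signs, both singles above wildtype and a negative product, were found in 31.9% of all these genes and in 5 of the 32. Both signs of the product were equally common over all genes, with 50.2% positive.

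**Figure D1:**
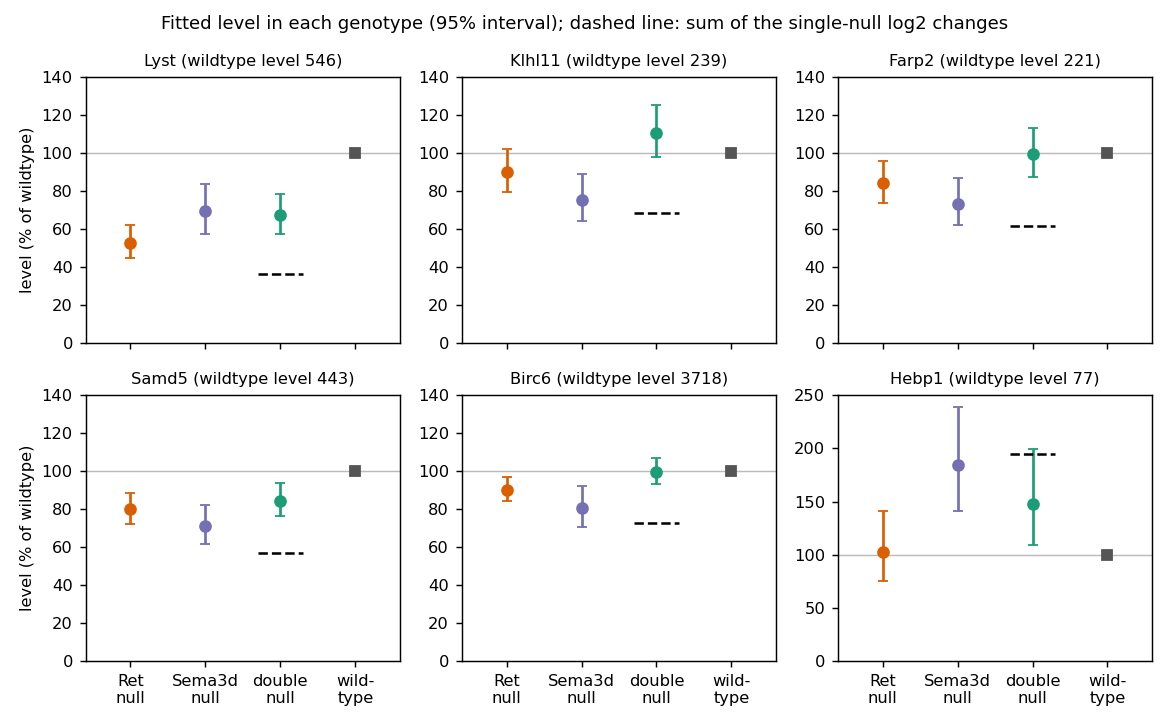
Level of each gene in the Ret, Sema3d and double nulls as a percentage of wildtype, from the 12-gut tables, with 95% intervals from the derived error (6 guts per genotype). The dashed line is the level that the sum of both single-null log2 changes of the 24-gut table would give. In Lyst, Klhl11, Farp2, Samd5 and Birc6 the double null point lies above the line, and in Hebp1 the line runs inside its interval.

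Lyst (ENSMUSG00000019726.10, chr13:13590397-13778803, plus strand, GRCm38) had the largest product coefficient of the 6. Its fitted level was 289 in Ret null, 378 in Sema3d null and 369 in double null guts, against 546 in wildtype guts. All 3 mutant genotypes thus lay below wildtype, Ret null the lowest at 52.9% of it and the double null close to the Sema3d null. The sum of the single changes gives 36.6% of wildtype for the double null, while the fitted value was 67.5%. The log2 change in the authors' deposited 12-gut tables was -0.92 ± 0.12 in Ret null (DESeq adjusted p = 6.59e-12), -0.53 ± 0.14 in Sema3d null (0.168) and -0.57 ± 0.11 in double null guts (5.78e-05). Lyst therefore fell in Ret null and double null guts, and its Sema3d null value missed the threshold. The product coefficient in the authors' deposited table was 0.88 ± 0.18 (DESeq adjusted p = 0.00329), rank 11 by p. In log2 units double null exceeded Ret null by 0.35 ± 0.13 and differed from Sema3d null by -0.04 ± 0.13. In the order of levels, Sema3d null and double null are neighbours that do not differ beyond their error. Because these are whole guts, fewer cells of a type and less RNA per cell cannot be told apart. The 6 enteric neuron markers summed to 284 in Ret null, 2373 in Sema3d null, 271 in double null and 2514 in wildtype guts, and 6 of 6 fell in both the Ret null and the double null table. The 5 neural crest and glia markers summed to 678, 1558, 691 and 1683 in the same order of genotypes, and 4 of 5 fell in Ret nulls and 5 of 5 in double nulls. No marker on either list had a fitted wildtype level under 1. Both sums were about as low in double null as in Ret null guts, whereas Lyst was higher in double null guts, and the part of these cells in the Lyst values was not tested.

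Klhl11 (ENSMUSG00000048732.5, chr11:100462614-100472741, minus strand) had a fitted level of 217 in Ret null, 181 in Sema3d null and 265 in double null guts, against 239 in wildtype guts. Sema3d null was lowest at 75.8% of wildtype and double null highest at 111%, so the double null lay above wildtype although both single nulls lay below it. None of the 3 changes passed the threshold in the authors' deposited 12-gut tables: -0.15 ± 0.09 in Ret null (DESeq adjusted p = 0.811), -0.40 ± 0.12 in Sema3d null (0.334) and 0.15 ± 0.09 in double null guts (0.935). The product coefficient was 0.69 ± 0.15 in the authors' deposited 24-gut table (DESeq adjusted p = 0.00531, rank 12). The gene was picked on that difference of differences, with no called change from wildtype behind it. Double null exceeded Sema3d null by 0.55 ± 0.10 and Ret null by 0.29 ± 0.10 on the log2 scale. In the order of levels, neither double null and wildtype nor wildtype and Ret null differ beyond their error (95% intervals of these differences span 0), while Ret null and Sema3d null differ by 0.26 ± 0.11.

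Birc6 (ENSMUSG00000024073.14, chr17:74528295-74703356, plus strand), the second gene linked to ubiquitin transfer, had the highest level of the 6 per kilobase of transcript, 236 normalised counts in wildtype guts, where the other genes had 41.4 to 100. Its fitted level was 3366 in Ret null, 2991 in Sema3d null and 3711 in double null guts, against 3718 in wildtype guts. Double null and wildtype levels were nearly equal (99.8%), with Ret null at 90.5% and Sema3d null at 80.5% of wildtype. In the authors' deposited 12-gut tables the changes were -0.15 ± 0.05 in Ret null (DESeq adjusted p = 0.130), -0.31 ± 0.10 in Sema3d null (0.474) and -0.00 ± 0.05 in double null guts (1.0). None of these was called. The product coefficient of 0.45 ± 0.11 (DESeq adjusted p = 0.0204 in the authors' deposited table, rank 20) was the smallest of the 5 positive ones, on the smallest error. Double null exceeded Sema3d null by 0.31 ± 0.07 and Ret null by 0.14 ± 0.07. With the spread taken as equal in all genotypes, the 95% interval of the second difference spans 0. The 12-gut errors were unequal, at 0.10 for Sema3d null and 0.05 for Ret null and double null, so that reading depends on the shared spread.

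Farp2 (ENSMUSG00000034066.13, chr1:93512079-93621976, plus strand) is the gene among the 6 with a known place in semaphorin signalling. Its fitted level was 186 in Ret null, 162 in Sema3d null and 220 in double null guts, against 221 in wildtype guts. Double null and wildtype were again almost equal (99.7%), and the single nulls lay at 84.2% and 73.4% of wildtype. The authors' deposited 12-gut tables gave -0.25 ± 0.10 in Ret null (DESeq adjusted p = 0.233), -0.44 ± 0.12 in Sema3d null (0.195) and -0.01 ± 0.09 in double null guts (1.0), so no change from wildtype was called. Its product coefficient was 0.69 ± 0.15 (DESeq adjusted p = 0.0110 in the authors' deposited table, rank 15). Double null exceeded Sema3d null by 0.44 ± 0.11 and Ret null by 0.24 ± 0.11, and the single nulls differed from each other within their error (0.20 ± 0.11).

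Samd5 (ENSMUSG00000060487.5, chr10:9622936-9675208, minus strand) was the member called in both single-null tables. Its fitted level was 356 in Ret null, 316 in Sema3d null and 375 in double null guts, against 443 in wildtype guts. Every mutant genotype lay below wildtype, at 80.2%, 71.3% and 84.6%, where the sum of the single changes gives 57.2% for the double null. In the authors' deposited 12-gut tables it fell by 0.32 ± 0.07 in Ret null guts (DESeq adjusted p = 0.00107) and by 0.49 ± 0.11 in Sema3d null guts (0.0115), and its double null value was -0.24 ± 0.07 (0.0575). The product coefficient was 0.57 ± 0.13 (DESeq adjusted p = 0.0204 in the authors' deposited table, rank 18). Double null exceeded Sema3d null by 0.25 ± 0.09. The difference of double null from Ret null was 0.08 ± 0.09 and that of Ret null from Sema3d null 0.17 ± 0.09, so these neighbours do not differ beyond their error. Of the Samd5 transcript, 92.4% does not code for protein, the largest share of the 6.

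Hebp1 (ENSMUSG00000042770.8, chr6:135137522-135198022, minus strand) was picked for its Sema3d null change, and its pattern is unlike that of the other 5. Its fitted level was 79.1 in Ret null, 145 in Sema3d null and 117 in double null guts, against 76.6 in wildtype guts. The 2 genotypes that lack Sema3d were the higher ones, at 189% and 152% of wildtype, and Ret null was close to wildtype at 103%. In the authors' deposited 12-gut tables it rose by 0.88 ± 0.19 on the log2 scale in Sema3d null guts (DESeq adjusted p = 0.0137), with values of 0.04 ± 0.23 in Ret nulls (1.0) and 0.56 ± 0.22 in double nulls (0.320). The product coefficient was not called, at -0.35 ± 0.31 (95% interval -0.95 to 0.25; DESeq adjusted p = 0.885 in the authors' deposited table). The double null level was 0.784 times that given by the sum of the single changes, with the sum inside its interval. The spread between guts implied by the errors was 23.9% of the level for Hebp1, against 8.76% to 14.6% for the other 5. On chromosome 6 the gene lies 16.9 Mb from Ret.

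In the tables for single comparisons, 2 of the 6 genes were called in Sema3d null guts (Samd5 lower, Hebp1 higher), where 0.0404% of all genes were called (10 of 24747; 0.0202% higher and 0.0202% lower). In Ret null guts 2 of 6 were called (Lyst and Samd5, both lower), where 2.66% of all genes were (654 of 24602; 0.386% higher and 2.27% lower). In double null guts 1 of 6 was called (Lyst, lower), where 2.1% of all genes were (518 of 24663; 0.231% higher and 1.87% lower). Nothing follows from the share in Sema3d null guts, since the genes were picked on that change or on the product coefficient. The 3 comparisons share the 6 wildtype guts, so a value that is off in wildtype moves all of them, and the product coefficient as well. Recomputed as double null minus both single nulls from the 12-gut tables, the product was 0.88 for Lyst, 0.70 for Klhl11, 0.69 for Farp2, 0.57 for Samd5, 0.46 for Birc6 and -0.36 for Hebp1, as in the plot of product coefficients.

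**Figure D2:**
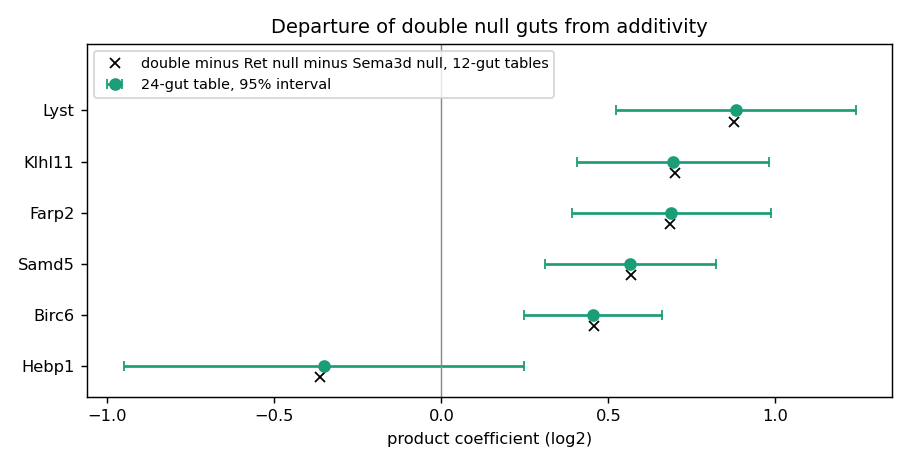
Product coefficient of each gene (log2, x axis) from the 24-gut table with its 95% interval from the derived error, and the same quantity from the 3 separate 12-gut tables (crosses). The 5 positive intervals lie above 0, that of Hebp1 spans it, and each cross falls within 0.02 of its point.

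The product coefficient varied with transcript length over all genes, and the 6 genes lie far apart in length. Lengths were available for 99.8% of the 12181 genes, which were split into 10 groups of equal size. The median product was -0.167 in the shortest group (up to 1356 bases) and 0.182 in the longest (7009 bases and more). The median Sema3d null change ran the other way, at 0.111 and -0.116. The medians of the other genotypes in these groups moved less, at 0.035 and -0.039 in Ret null and -0.019 and 0.023 in double null guts. Birc6 (15768 bases) and Lyst (13181) fall in the longest group, Samd5 (6818) in group 9, Farp2 (3937) in group 7, Klhl11 (2393) in group 4 and Hebp1 (1058) in the shortest. Against the median of its own length group the product coefficient was 0.73 for Klhl11, 0.70 for Lyst, 0.65 for Farp2, 0.45 for Samd5, 0.27 for Birc6 and -0.18 for Hebp1. Klhl11 and Farp2 each had a larger product than 99.4% of their length group, Lyst than 99.3%, Samd5 than 99.0% and Birc6 than 93.3%. With each gene's coefficient taken relative to its length group and the p-values adjusted anew over the table, the product remained called for Klhl11 (adjusted p = 0.00155, chi-square with Benjamini-Hochberg adjustment) and Farp2 (0.0375), and not for Lyst (0.112), Samd5 (0.270) or Birc6 (0.792). The Sema3d null changes of Samd5 (adjusted p = 0.162) and Hebp1 (0.148) also missed the threshold in that setting, at log2 values of -0.41 and 0.77, against -0.49 and 0.88 as deposited (chi-square with Benjamini-Hochberg adjustment). The setting was chosen after the data had been seen. The genes were picked on these same product or Sema3d null values. A kept call or a high place within a length group is therefore no support for them. GC content of the transcript showed a trend too, in 10 groups of genes. From the lowest to the highest GC group the median product was 0.116 and -0.104, and the median Sema3d null change -0.086 and 0.093. The part of length or GC content in the members' values was not tested further.

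**Figure D3:**
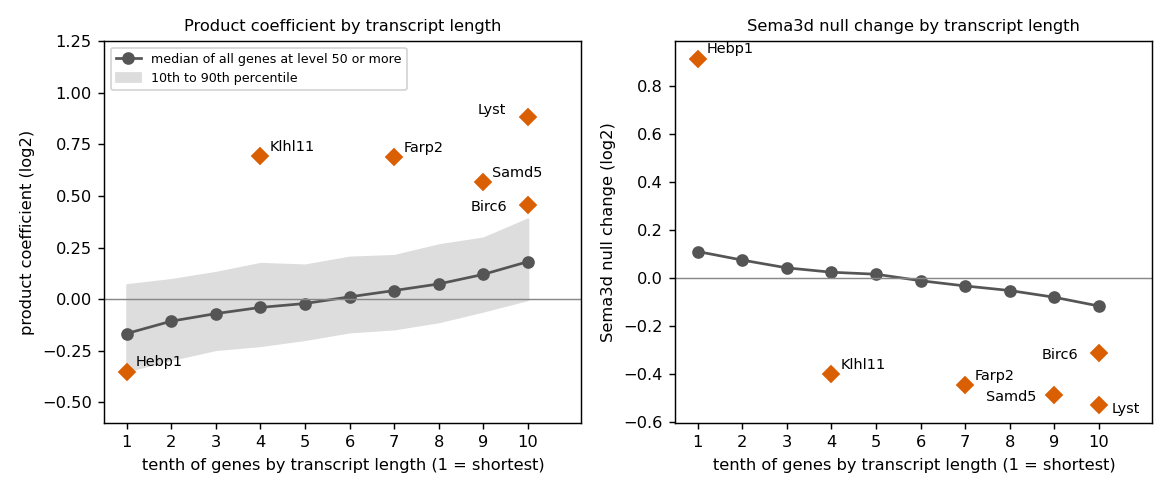
Product coefficient (left) and Sema3d null change (right), both log2, from the 24-gut table, against the group of genes by transcript length (1 shortest, 10 longest). Grey points are medians of 1214 to 1218 genes with a level of at least 50, the band spans the 10th to the 90th percentile, and diamonds are the 6 genes; the medians rise on the left and decline on the right, on the left 5 diamonds lie above the band and Hebp1 at its lower edge, and on the right these 5 lie below the medians and Hebp1 above.

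Sex was a covariate in every fit and was not used to pick the genes, and the p-values used here do not test it. The male minus female difference in each genotype was worked out from the 4 deposited sex coefficients. Hebp1 had levels of 196 in female and 107 in male Sema3d null guts, 91.5 and 149 in double null guts, 84.4 and 74.1 in Ret null guts, and 78.1 and 75.2 in wildtype guts. Females were thus the higher sex in Sema3d null and males in double null guts, by log2 differences (male minus female) of -0.88 ± 0.30 and 0.70 ± 0.30, while Ret null (-0.19 ± 0.31) and wildtype guts (-0.06 ± 0.31) showed little difference. The range of this difference over the genotypes was 1.58, larger than in 99.4% of 12130 genes, whose median range was 0.203. The other 5 genes had ranges from 0.162 (Farp2, larger than in 36.0% of genes) to 0.466 (Klhl11, larger than in 89.9%). In Klhl11 the male level was the higher one in Ret null guts (235 against 199 in females) and the lower one in Sema3d null guts (168 against 196). With 3 guts per sex and genotype and no value per gut, 1 library could set such a difference, and that was not tested.

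**Figure D4:**
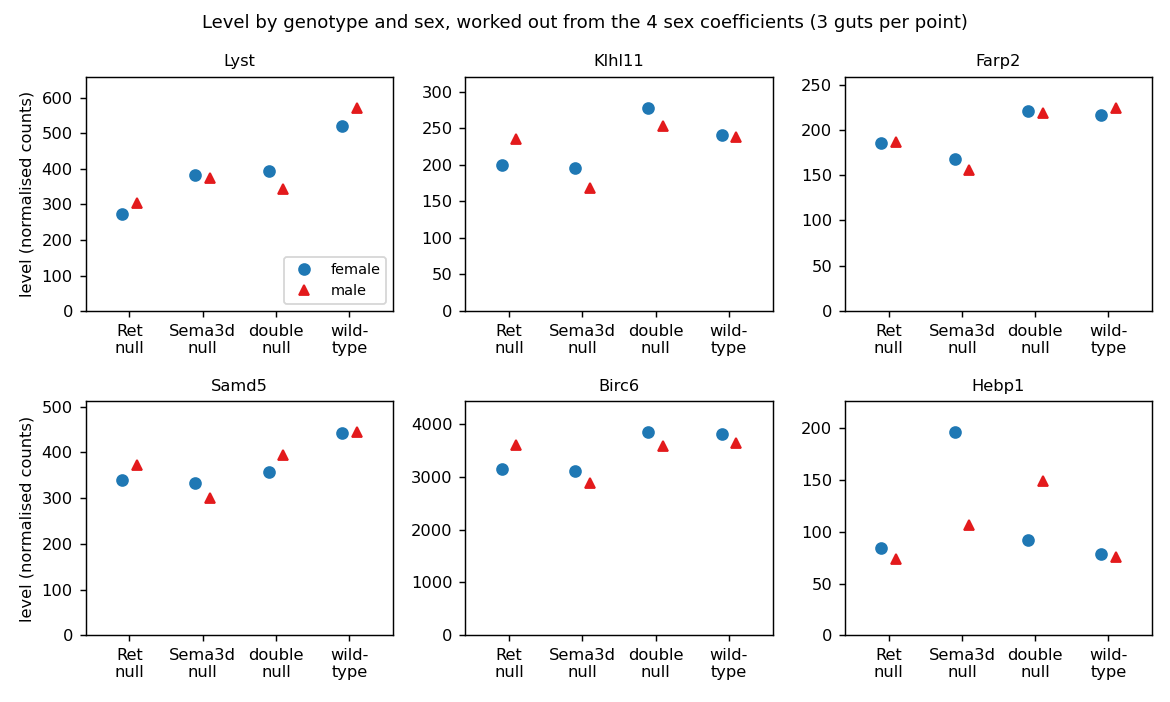
Level (normalised counts) of each gene by genotype in female (circles) and male guts (triangles), worked out from the 4 sex coefficients, with 3 guts behind each point and no error drawn. In Hebp1 the female point is the higher one in Sema3d null guts (196 against 107) and the male one in double null guts (149 against 91.5), and in the other genes the points of both sexes lie closer together.

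Markers of other cells were set beside the Hebp1 values, since the gut was taken whole. Of the 6 liver markers, 5 (without Alb, whose fit did not converge in the 24-gut table) summed to 712 in Ret null, 2511 in Sema3d null, 2591 in double null and 1467 in wildtype guts. In Sema3d null guts the fitted levels of all 5 lay above wildtype, at 132% (Ttr), 138% (Serpina1a), 166% (Apoa1), 185% (Afp) and 218% (Apoa2) of it. In double null guts the sum was set by Afp at 216%, beside Apoa2 at 239% of a low level, with Ttr at 103%, Apoa1 at 103% and Serpina1a at 106%. In the separate fit of Sema3d null guts against wildtype, the log2 change was 0.96 (Afp), 0.40 (Ttr), 0.68 (Apoa1), 1.72 (Apoa2) and 0.43 (Serpina1a). The separate fit of double null guts gave 0.86, 0.04, -0.05, 1.33 and 0.05 in the same order. The double null errors were wide for Afp (± 1.16) and Apoa2 (± 1.68). By the DESeq test 0 of 6 were called in any table (3 had an unadjusted p under 0.05 in Sema3d null guts and 0 in Ret null or double null guts), and none of the 5 had a fitted wildtype level under 1. The 6 erythroid markers, of cells that make heme in bulk, summed to 14221 in Ret null, 17373 in Sema3d null, 15541 in double null and 13719 in wildtype guts, again with 0 of 6 called and 1 under an unadjusted p of 0.05 in each single null. Smooth muscle markers summed to 8714, 11478, 9658 and 9414 in the same order, with 0 of 5 called and 0 under an unadjusted p of 0.05. The part of liver, blood or muscle RNA in the Hebp1 values was not tested.

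Relatives of each gene were read from lists chosen with earlier results of these data known, leaving the 6 genes out. Counts of unadjusted p under 0.05 are to be read against 4.53% of all genes for Sema3d null guts and 6.79% for the product. Of the 8 other BEACH domain genes, 1 fell in both the Ret null and the double null table, and 0 were called by the DESeq test for Sema3d null or the product, where 2 and 3 had an unadjusted p under 0.05. That gene was Nbea, a neuronal vesicle protein, at -0.41 ± 0.05 in Ret null, -0.21 ± 0.09 in Sema3d null and -0.22 ± 0.05 in double null guts, per the authors' deposited tables, with a product of 0.40 ± 0.11 (DESeq adjusted p = 0.102). Lrba, another BEACH protein of vesicle traffic, had a product of 0.02 ± 0.13 in the authors' deposited table. The list's median product was 0.16, against 0.00 over all 12181 genes and 0.18 in the group with the longest transcripts, which holds Lyst. The part of length in the list's median was not tested. Of 17 genes that build lysosome-related organelles, 1 was called, the myosin motor Myo5a, which fell in Ret null (-0.23 ± 0.06) and double null guts (-0.20 ± 0.05), per the authors' deposited tables. The list's median product was -0.05.

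The semaphorin list, which holds Farp1, plexins, neuropilins and their effectors, had 1 of 22 genes higher and 5 lower in Ret null guts, 1 higher and 4 lower in double null guts, 1 lower in Sema3d null guts (Sema3d itself) and 1 with a called product. Over all genes 0.386% were called higher and 2.27% lower in Ret null guts, and 0.231% and 1.87% in double null guts. Sema3d is also among the lower ones in both, at -0.27 ± 0.06 in Ret null guts (DESeq adjusted p = 0.000882), per the authors' deposited tables. The gene with the called product was Plxna4, a plexin A receptor, with a log2 change of -1.45 ± 0.10 in Ret null, -0.10 ± 0.10 in Sema3d null and -0.88 ± 0.12 in double null guts and a product of 0.66 ± 0.16 (DESeq adjusted p = 0.0265) in the authors' deposited tables. Like Lyst it was lowest in Ret null guts, but its Sema3d null value was about as large as its error. Farp1, the paralogue of Farp2, had a product of -0.05 ± 0.11, the plexin partner Plxna1 0.18 ± 0.10, the neuropilin Nrp1 0.23 ± 0.11 and the GTPase Rac1 -0.09 ± 0.10 in the authors' deposited table, none of them called. Nrp1 fell in Ret null guts (-0.24 ± 0.05), and the kinase Fyn (-0.36 ± 0.06) and the collapsin mediator Crmp1 (-0.32 ± 0.06) fell there too in the authors' deposited table.

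Among 39 other Kelch-like and Cul3 ligase genes 0 were called in any of the 4 tables, and 3 had an unadjusted product p under 0.05. Their median product was 0.12. Cul3 itself had 0.03 ± 0.11 and Klhl9 0.23 ± 0.11, while the largest among those with a level of at least 50 was Klhl28 at 0.60 ± 0.21 (DESeq adjusted p = 0.333), in the authors' deposited table; Klhl28 is named after its value was seen. Of 16 apoptosis inhibitors and their partners 0 were called, again with 3 under an unadjusted product p of 0.05 and a median of -0.01. Xiap, which blocks caspases, had a product of 0.24 ± 0.12, Birc2 0.07 ± 0.12, the Birc6 substrate Diablo -0.05 ± 0.13, and Uba6, the activating enzyme that charges Birc6 with ubiquitin, 0.34 ± 0.11 (DESeq adjusted p = 0.291) in the authors' deposited table. The 16 measured of 17 other sterile alpha motif genes had 0 calls, 0 unadjusted product p-values under 0.05 and a median product of 0.02, with Samd4 at 0.02 ± 0.12 and Sash1 at 0.07 ± 0.17 in the authors' deposited table. Of 18 measured heme genes 1 was called, in Ret null guts: Alad, an enzyme of heme synthesis, at 0.90 ± 0.15 in the authors' deposited table. Hebp2, the paralogue of Hebp1, had log2 values of 0.59 ± 0.23 in Ret null, 0.49 ± 0.21 in Sema3d null and 0.44 ± 0.32 in double null guts, per the authors' deposited tables, none called, at a wildtype level of 43.3. Alas1, Fech and Hmox1, which begin and end heme synthesis and break heme down, were not called in any table.

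**Figure D5:**
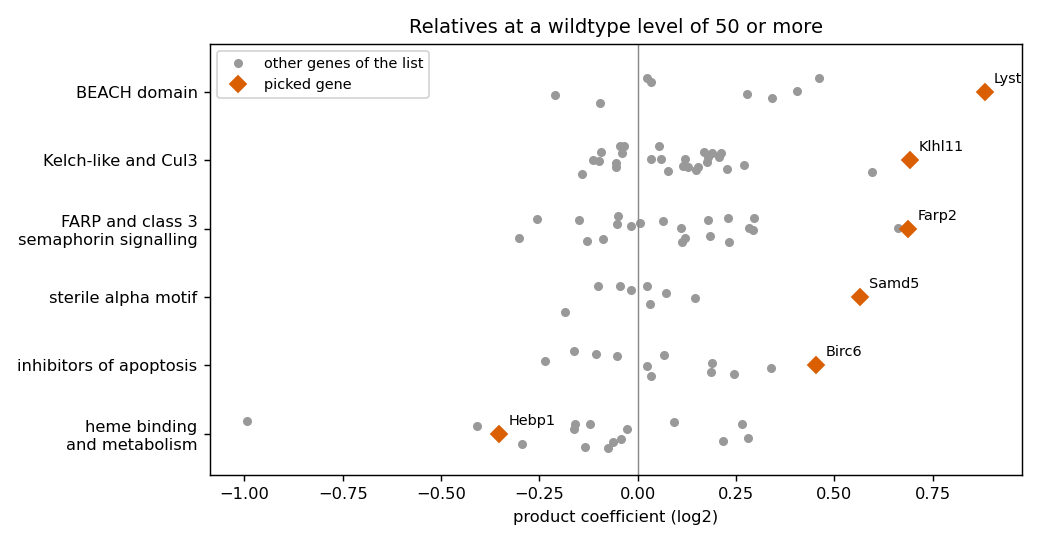
Product coefficient (log2, x axis) of the 6 genes (diamonds) and of the other genes of each list with a wildtype level of at least 50 (grey points, spread vertically at random for legibility). The diamonds of Lyst, Klhl11, Farp2, Samd5 and Birc6 lie beyond the right end of their lists, as their choice implies, with Plxna4 beside Farp2, and Alad is the leftmost point.

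Overlapping genes were checked because reads from both strands could mix if counting ignored strand, which the sources used here do not give. Stk25 lies on the opposite strand to Farp2 and had log2 changes of 0.02 ± 0.05 in Ret null, 0.09 ± 0.09 in Sema3d null and 0.02 ± 0.05 in double null guts, with a product of -0.09 ± 0.11, in the authors' deposited tables. Fam234b, opposite to Hebp1, had -0.05 ± 0.08, -0.14 ± 0.11 and -0.07 ± 0.08 in the same order and a product of 0.12 ± 0.13 in the authors' deposited tables. Neither was called in any table, and whether their reads entered the Farp2 or Hebp1 values was not tested. The other listed overlapping genes had a wildtype level under 1.

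The genes nearest in pattern to each of the 6 were found by the distance between the 3 log2 changes from wildtype, over 12181 genes and 4 genotypes. Birc6 had the closest neighbour, Itgav, at a distance of 0.00853, followed by Herc2 at 0.0278, and both also had a called product in the authors' deposited table (DESeq adjusted p = 0.0265 and 0.0380). The nearest to Farp2 were Snx29 (0.0420) and Ptar1 (0.0506), and the nearest to Lyst were Rims2 (0.0440) and Gm10260 (0.0766). For Klhl11 they were Hoxa11 (0.0787) and Gm38399 (0.0789), and for Samd5 Hsd17b7 (0.0794) and Polh (0.0798). Hebp1 had no neighbour as close, Bnip3 lying at 0.168 and Slc16a3 at 0.356. Apart from those of Birc6, none of these genes had a called product.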

How the data were processed

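Poly-A RNA of 24 whole guts was sequenced (6 per genotype, 3 per sex). The tools named in the submitters' processing notes are DESeq 1.24.0, RSEM 1.2.31, STAR, Trimmomatic 0.36 and FastQC 0.11.5, and the build is GRCm38 (mm10). The authors deposited 4 tables of model fits, 3 over 12 guts and 1 over 24, with sex as a covariate and no value per gut, so the depth per library is unknown from them and the spread between guts is known only as the errors imply it. The log2 coefficients, the deviances (used as a score of fit) and the p-values and adjusted p-values are those deposited by the authors; the coefficients of the 24-gut table are log2 values too, with a few unbounded ones treated as a score. Symbol and gene type have exchanged headers in the table for Ret null guts, where columns were read by content. The log base is not named in the headers; base 2 was used, since wildtype levels then sum (in units of 1000000 normalised counts) to 11.6 to 12.0 per table, against 435 to 458 with the natural base.

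Computed here, with Python 3.11.15, pandas 2.3.3 and scipy 1.17.1: the derived error (size of the coefficient over the square root of its deviance drop), the fitted levels, the sex differences per genotype, distances between patterns, and transcript lengths from GENCODE M21. Double null against each single null carries an error from the implied spread, taken as equal in all 4 genotypes, and no p. The arithmetic was checked on simulated data. Genes with a level under 50, or with a coefficient beyond 15, were left out of the comparisons over all genes. Planned count tests were not run, since no counts are used here. The 6 genes and all lists were chosen with earlier results of these data known. Named besides the 6 are relatives marked in the lists, list genes that were called (up to 4 by p), and the 2 genes nearest in pattern.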

Additional observations from a re-analysis of the deposited data

Results flagged for a closer look

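In 5 of the 6 genes the effect of losing Ret in Sema3d null guts differed from its effect in guts with Sema3d, by the product term of the authors' deposited 24-gut table. The product coefficient was 0.88 for Lyst, 0.69 for Klhl11, 0.69 for Farp2, 0.57 for Samd5 and 0.45 for Birc6. These genes were picked for that value, so it is a description of the choice and no support for it.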

How the results depend on the processing

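Over 228 recomputed values, 198 kept their direction and their side of the threshold or stayed within their error, and 0 reversed. With Bonferroni adjustment the calls lost were Samd5 in Ret null (0.419) and Sema3d null guts (0.0866), Hebp1 in Sema3d null guts (0.123), and the products of Klhl11 (0.0637), Farp2 (0.166), Samd5 (0.385) and Birc6 (0.408). That adjustment is stricter by construction. Relative to genes of like transcript length, a setting added after seeing the data, the calls lost were Samd5 (0.162, log2 -0.41) and Hebp1 (0.148, log2 0.77) in Sema3d null guts and the products of Lyst (0.112, log2 0.70), Samd5 (0.270, log2 0.45) and Birc6 (0.792). The first 4 log2 values stayed within their error of the deposited ones, and Birc6 moved to -0.20 in Sema3d null guts and to 0.27 for its product. Samd5 was called in double null guts over genes at level 50 or more (0.0400, fewer genes tested), relative to the median of all genes (0.0473) and to genes of like length (0.0245); for the last 2 the cause was not tested. Against additivity on the linear scale the log2 departure was 1.61 for Lyst and 0.72 for Samd5. The number of called genes was 5 and 17 in Sema3d null guts at thresholds of 0.01 and 0.10; for the product it was 14 and 65, and 17 relative to genes of like length. With a natural base the median level of the 6 genes would be 2944 in Ret null, 2929 in Sema3d null, 4090 in double null and 4645 in wildtype guts. Of the 12 nearest genes, 1 was shared when distances were divided by the derived error and 5 at a minimum level of 200. No paired analysis was possible because the deposited tables hold no value per library; for the same reason no replicate could be left out.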

Other observations

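The 6 genes lie on 6 different chromosomes. Of the genes within 1 Mb of any of them, 10 of 179 (5.59%) were called in Ret null guts, where 2.66% of all genes were, 6 of 179 (3.35%) in double null guts (2.1% of all), 0 of 182 in Sema3d null guts (0.0404% of all) by the DESeq test, with 7 at an unadjusted p under 0.05, and 1 of 189 (0.529%) for the product (0.164% of all), which is near Lyst. In Ret null guts 2 of 16 genes near Lyst were called, 4 of 71 near Klhl11, 1 of 40 near Farp2, 1 of 7 near Samd5, 2 of 17 near Birc6 and 0 of 28 near Hebp1.

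Over all genes at a level of 50 or more, those with a called positive product had long transcripts, with a median of 8328 bases (n = 25), those with a called negative product short ones, with a median of 1610 bases (n = 6), and all genes a median of 3331 bases. Klhl11, at 2393 bases, was the shortest of the 25.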
